A study of Drosophila melanogaster with 24 samples.

Results

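The 2 forkhead genes *jumu* and *CHES-1-like* were removed singly and together in the same tissue, so that for every gene the effect of losing both can be set against the sum of the effects of losing each. This comparison used 16 of the 24 libraries of the series, chosen by genotype label, with 4 biological replicates in each of 4 groups. RNA was taken from mesodermal cells of *Drosophila melanogaster* embryos of stages 11 to 12, dissociated and sorted by flow cytometry for GFP. In double loss embryos (Df(1)CHES-1-like1 together with twi-GAL4 Df(3R)Exel6157 over UAS-2EGFP Df(3R)Exel6157) both genes were deleted. In jumu loss embryos (twi-GAL4 Df(3R)Exel6157 over UAS-2EGFP Df(3R)Exel6157) only the *jumu* region was deleted, and in CHES-1-like loss embryos (Df(1)CHES-1-like1 with twi-GAL4 UAS-2EGFP over a wild-type chromosome) only *CHES-1-like*. Wild-type embryos carried twi-GAL4 UAS-2EGFP over a wild-type chromosome. All 4 genotypes therefore carried the *twist* GAL4 driver, which is active in the mesoderm, and the GFP reporter, while the deletions were present in every cell of the embryo. Each genotype came from its own stocks, so that strain background and genotype cannot be told apart, and a deficiency can remove or join other genes beside the one it is named for.

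Forkhead (Fox) proteins are transcription factors that bind DNA through a winged-helix domain, and they act both as activators and as repressors. In the fly mesoderm *jumu* and *CHES-1-like* are known for their parts in the specification and the divisions of heart progenitors, and the FGF receptor gene *htl* and the Wnt receptor gene *fz* are among the targets assigned to them. In genetics, an interaction term is the departure of a double mutant from what its single mutants add up to. A gene held up by either factor alone moves only when both are lost, a gene on which one loss cancels the other returns to its wild-type level in the double mutant, and a gene on which each loss deepens the other moves further than the sum.

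The interaction was computed on the log2 scale as double loss minus jumu loss minus CHES-1-like loss plus wild-type, so that it is 0 where the log2 effects of the losses add up. It is above 0 where the double loss lies above that sum and below 0 where it lies below. Of 12233 genes tested, 1496 (12.2%) passed an adjusted p below 0.1 and an absolute interaction above 0.5 in edgeR's quasi-likelihood test, 734 (6%) with an interaction above 0 and 762 (6.23%) below 0. A further requirement of an absolute interaction above 1 left 803 genes (6.56%), 469 above 0 and 334 below 0. In the same fit 3179 genes (26%) passed in double loss against wild-type, 1509 (12.3%) higher and 1670 (13.7%) lower. In jumu loss 2147 genes (17.6%) passed, 1112 (9.09%) higher and 1035 (8.46%) lower, and in CHES-1-like loss 1574 (12.9%) passed, 608 (4.97%) higher and 966 (7.9%) lower. These comparisons share the wild-type libraries and 1 fit. On a linear scale, where changes in CPM rather than in log2 CPM are added, 14 of the 1496 genes had a departure of the other sign.

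Library totals ran from 15197022 to 72519855 counts over the 16 libraries, and the scaling between groups bears on some of the directions given below. The share of counts in protein-coding genes was 59.7% to 61.83% in double loss, 40.96% to 44.76% in jumu loss, 30.68% to 37.97% in CHES-1-like loss and 44.89% to 48.55% in wild-type. Levels are therefore given as CPM, the counts of a gene per 1000000 counts, on TMM-scaled libraries, under which the median interaction of all tested genes was 0.04. Scaling to the total of protein-coding genes moved that median to 0.12 and called 1514 genes, of which 62.2% were above 0, against 49.1% with TMM factors. Scaling to raw library totals moved it to 1.07 and called 9754 genes, 98.3% of them above 0. Of the interactions of the 116 genes chosen by rule for naming, 82 kept their sign under every scaling tried and 34 turned with raw library totals. Each interaction below is thus relative to the bulk of tested genes and says nothing of a change common to all of them.

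Double loss replicate 2 stood apart from the other libraries of its group. Its summed neural markers reached 548.8 CPM, against 283 to 288.7 CPM in the other 3 double loss libraries, and its summed mesodermal markers 1127 CPM, against 813.4 to 832.5 CPM. Without it 2029 genes were called, 1021 above 0 and 1008 below, and 1394 (93.2%) of the 1496 genes were among them. Of the 116 named genes 9 were classed differently without it, and the value without it is given for genes on which it bore most. The mesodermal label itself held in all groups, with *Mef2*, the muscle transcription factor, at 404.6 CPM or more and *twi* at 20.9 CPM or more in every library. Genes of other cells were present too, among them *elav* of neurons at 147 CPM or more, and in bulk RNA fewer cells of a type and less RNA per cell cannot be told apart.

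The targeted genes came down in the genotypes labelled for their loss. *CHES-1-like* (FBgn0029504, X:7682338-7709385 in Release 6) had 0.671, 2.700, 0.776 and 0.545 CPM in double loss, 134, 126, 119 and 127 CPM in jumu loss, 0.787, 1.35, 1.69 and 0.6699 CPM in CHES-1-like loss and 151, 157, 153 and 151 CPM in wild-type. *jumu* (FBgn0015396, 3R:10350182-10361612) had 23.1, 18.7, 21.9 and 21.99 CPM in double loss, 26.7, 29.9, 31.2 and 30.5 CPM in jumu loss, 106, 97.9, 97.4 and 99.3 CPM in CHES-1-like loss and 123, 121, 120.4 and 115 CPM in wild-type. *CHES-1-like* was nearly gone from both groups that lack it, while reads of *jumu* remained, at 18.7 to 31.2 CPM, in both groups with its deficiency. Neither was called for the interaction, with 0.37 ± 0.45 for *CHES-1-like* (adjusted p = 0.76) and -0.20 ± 0.10 for *jumu* (adjusted p = 0.25).

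Genes beside the *jumu* deficiency were among those called. *Bruce* (an inhibitor of apoptosis, annotated within 50000 bases of *jumu*) had 1957 to 2049.6 CPM in double loss, 3382 to 3595 CPM in jumu loss, 284 to 325 CPM in CHES-1-like loss and 318 to 334 CPM in wild-type. It rose in both groups that carry Df(3R)Exel6157 but less in double loss, with an interaction of -0.71 ± 0.09 (adjusted p = 2.63e-05). Of the other genes within 50000 bases of *jumu*, *CG12818* and *CG6293* were also called, with interactions of -0.72 and 1.44, and the rest were not. Over all genes tested 12.2% were called. The uncalled neighbour *CG31406* had a fitted log2 difference from wild-type of 8.18 in jumu loss and 8.09 in double loss. Among other uncalled neighbours, *CG18545* had 6.45 and 6.21, *CG12592* 1.56 and 1.42 and *Rfx* -3.21 and -4.54. Others, such as *cwo* at 0.20 and 0.20, moved little. How far the deficiency itself sets these levels was not tested.

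Every called gene was given 1 class from which of the losses passed against wild-type at the same thresholds. A gene is redundant where only the double loss passed, synergistic where a single loss passed and the double loss went further than the sum, and masking where a single loss passed and the double loss did not. It is sub-additive where both single losses and the double loss passed in 1 direction but the double loss fell short of the sum, partial masking where the same held with a single loss only, opposed where a passing single loss and the double loss went in different directions, and unclassed where none passed. Masking held 433 genes (3.54% of those tested), unclassed 303, sub-additive 271 (2.22%), redundant 193 (1.58%), opposed 158 (1.29%), partial masking 95 (0.777%) and synergistic 43 (0.352%). Without double loss replicate 2 the order was the same, at 616, 453, 308, 268, 209, 111 and 64 genes. Classes are descriptions of the fitted pattern and depend on the thresholds, and of the 193 redundant genes 72 had both single losses within 0.25 of wild-type on the log2 scale.

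**Figure D1:**
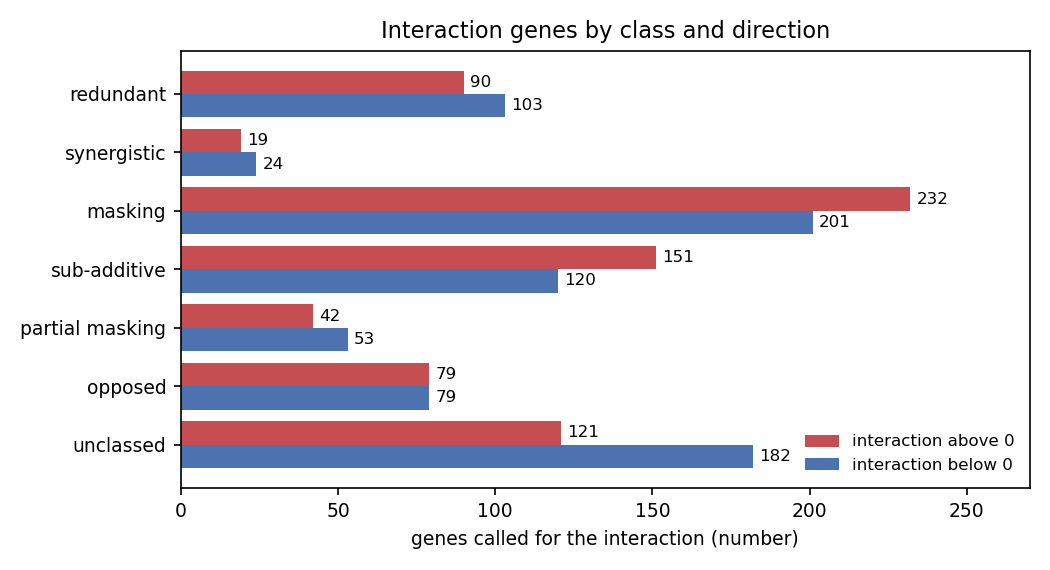
Number of genes called for the interaction in each class, with interactions above 0 and below 0 as separate bars. Masking is the largest class with 232 and 201 genes, and synergistic the smallest with 19 and 24.

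Among genes with both single losses passing in 1 direction, departures against that direction were far more frequent than departures with it. Both single losses passed in 1 direction for 486 genes, and 337 of these were called with an interaction against that direction and 149 were not called. With edgeR none of the 486 was called with an interaction in the direction of the single losses, 1 had such an interaction at an unadjusted p below 0.05, DESeq2 called 1 of 547, and without double loss replicate 2 edgeR called 1 of 582. With RLE factors and with protein-coding totals the count called in the direction of the single losses was 0. With raw library totals and with totals without rRNA genes it was 1. In these settings nearly all calls lay above 0, and most genes with both single losses in 1 direction were lower, 1097 of 1192 and 735 of 843. The shift of all genes thus sets that count, and these settings cannot test it. All losses were set against the same wild-type libraries, so that a gene whose wild-type level alone differs from the rest falls on this side of the sum by construction. Choosing genes by both single losses, which enter the interaction with a minus sign, also favours this side. The choice leaves out the 193 redundant genes, in which neither single loss passed.

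Which group stood apart was counted separately, as the group that passed against each of the other 3 while those 3 did not differ among themselves by the same rule. The double loss stood apart for 138 called genes, 55 higher and 83 lower than the rest. The jumu loss stood apart for 58, the CHES-1-like loss for 137 and the wild-type for 140, and no group stood apart for 1023. Among the 140 genes for which the wild-type stood apart, 90 were higher and 50 lower in wild-type than in the 3 mutant groups.

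**Figure D2:**
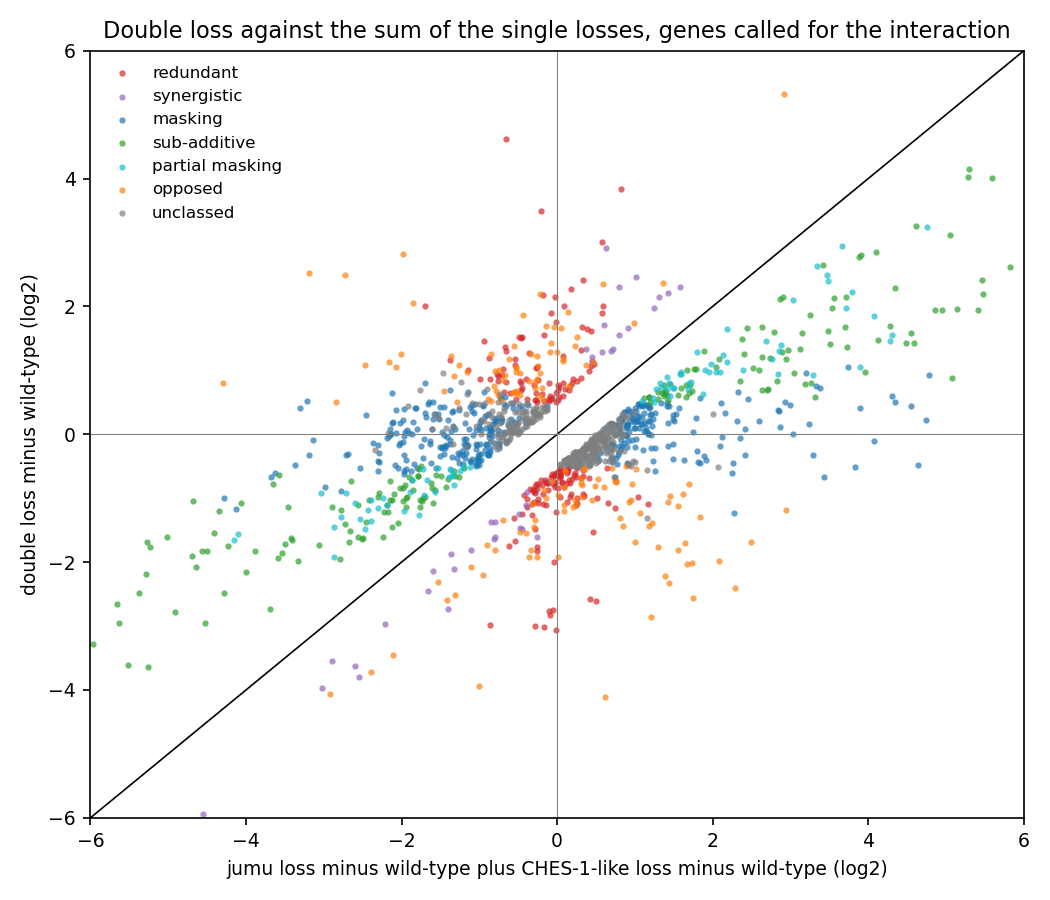
Double loss minus wild-type against the sum of the single losses minus wild-type, both on the log2 scale, for 1328 called genes coloured by class. The line marks additivity. Sub-additive genes lie between the line and the horizontal axis, masking genes around that axis on either side of it, redundant genes near the vertical axis, and synergistic genes beyond the line.

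The redundant genes comprised 103 with a lower and 90 with a higher level in the double loss. The double loss libraries did not overlap any library of the other 3 groups for 142 of the 193, and for 9.61% of all tested genes, a pattern that the rule of the class itself favours. The 88 protein-coding genes of the 90 higher ones were mostly of low level, with a median average log2 CPM of 0.32, against 3.04 over all protein-coding genes tested. The 76 protein-coding genes among the lower ones were long, with a median of 3717.5 annotated exonic bases, against 2011 over all protein-coding genes tested. Whether transcript length bears on their counts was not tested.

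*Blimp-1*, a zinc finger transcriptional repressor of the ecdysone response and tracheal development (FBgn0035625, 3L:5630983-5652094), was among the lower ones. It had 2.82, 3.89, 3.38 and 3.42 CPM in double loss, 11.2, 10.3, 9.701 and 10.2 CPM in jumu loss, 7.92, 6.46, 6.48 and 7.01 CPM in CHES-1-like loss and 10.04, 9.19, 8.55 and 9.72 CPM in wild-type. The double loss libraries were all below 4 CPM and those of the other groups all above 6 CPM. Its interaction was -1.20 ± 0.15 (adjusted p = 1.15e-05), with 0.14 in jumu loss and -0.42 in CHES-1-like loss against -1.48 in double loss, each minus wild-type.

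*zfh1*, a zinc finger and homeodomain repressor of mesoderm, hemocytes and heart (FBgn0004606, 3R:30765926-30789202), behaved in the same way at a higher level. It had 97.5, 161, 99.2 and 101 CPM in double loss, 225, 186, 197 and 190.5 CPM in jumu loss, 179, 200.2, 188 and 153 CPM in CHES-1-like loss and 179, 175, 166 and 179 CPM in wild-type. The other double loss libraries lay at 97.5 to 101 CPM, while double loss replicate 2 reached the lower end of the CHES-1-like loss libraries. The interaction was -0.84 ± 0.18 (adjusted p = 0.0041), and -1.05 without replicate 2. *aop*, the Ets repressor that acts at the end of the Ras pathway, had 98.9 to 156 CPM in double loss, 170.5 to 195 CPM in jumu loss, 147 to 188 CPM in CHES-1-like loss and 159 to 176 CPM in wild-type, with an interaction of -0.67 ± 0.17 (adjusted p = 0.013) and -0.85 without replicate 2. Of the 116 named genes 51 overlap another gene in the annotation, among the redundant ones described here *zfh1*, *aop*, *bi*, *dpr3*, *trh*, *Pxn*, *kek2*, *beat-Ia* and *stops*, and *Gp93* does as well.

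*bi*, the T-box gene known as optomotor-blind, had 2.85, 5.96, 3.62 and 3.15 CPM in double loss, 9.18, 6.902, 9.31 and 8.33 CPM in jumu loss, 8.66, 6.94, 9.21 and 7.12 CPM in CHES-1-like loss and 7.89, 8.26, 7.22 and 8.101 CPM in wild-type. Its single-loss libraries lay within or beside the wild-type range and its double loss libraries below it. The interaction was -1.17 ± 0.24 (adjusted p = 0.0024). *verm*, a secreted chitin-binding deacetylase of the tracheal matrix, had 2.22 to 2.46 CPM in double loss, 4.94 to 7.27 CPM in jumu loss, 3.61 to 4.72 CPM in CHES-1-like loss and 4.16 to 4.87 CPM in wild-type (interaction -1.26), and *dpr3*, an immunoglobulin-domain surface protein, 1.61 to 2.197 CPM in double loss, 4.995 to 6.33 CPM in jumu loss, 4.34 to 5.88 CPM in CHES-1-like loss and 4.91 to 7.37 CPM in wild-type (interaction -1.12). *trh*, the master regulator of trachea, fell by the same pattern, with 5.92 to 7.74 CPM in double loss, 9.59 to 11.6 CPM in jumu loss, 11.9 to 15.03 CPM in CHES-1-like loss and 9.18 to 11.9 CPM in wild-type and an interaction of -0.99 ± 0.15. *Pxn*, a peroxidase of the basement membrane made by hemocytes, had 204 ± 33.6 CPM in double loss, 319 ± 13.4 CPM in jumu loss, 487 ± 27.8 CPM in CHES-1-like loss and 430.0 ± 16.8 CPM in wild-type (SD, n = 4) and an interaction of -0.82 ± 0.13. *Gp93*, the fly relative of the endoplasmic reticulum chaperone GRP94, was picked after its values were seen, because its other 3 groups were so alike. It had 201 ± 27.1 CPM in double loss, 403 ± 11.97 CPM in jumu loss, 403 ± 28.96 CPM in CHES-1-like loss and 398 ± 12.7 CPM in wild-type (SD, n = 4) and an interaction of -1.02 ± 0.12 (adjusted p = 7.20e-06).

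Among redundant genes that were higher in the double loss, *kek2*, a leucine-rich repeat transmembrane protein of the kekkon family, had 13.3, 14.2, 10.96 and 11.97 CPM in double loss, 6.75, 6.65, 5.92 and 7.603 CPM in jumu loss, 4.84, 4.05, 4.05 and 5.14 CPM in CHES-1-like loss and 6.39, 6.34, 5.95 and 5.81 CPM in wild-type. All 4 double loss libraries lay above 10 CPM and all the others below 8 CPM. The CHES-1-like loss libraries lay below the wild-type ones, at -0.40 minus wild-type, short of the 0.5 threshold. The interaction was 1.30 ± 0.16 (adjusted p = 8.91e-06). *pwn* (interaction 1.32 ± 0.25) had 4.01 to 5.599 CPM in double loss, 1.96 to 2.73 CPM in jumu loss, 1.54 to 2.39 CPM in CHES-1-like loss and 1.67 to 2.94 CPM in wild-type, and *beat-Ia*, an anti-adhesive factor of motor axon guidance, 4.09 to 6.47 CPM in double loss, 1.900 to 3.43 CPM in jumu loss, 1.77 to 3.09 CPM in CHES-1-like loss and 2.43 to 3.25 CPM in wild-type (interaction 1.09 ± 0.27). *stops*, known from the ending of phototransduction, was carried unevenly by its double loss libraries, at 3.62, 1.23, 2.49 and 2.41 CPM in double loss, 1.29, 1.33, 1.46 and 1.24 CPM in jumu loss, 1.07, 1.35, 1.47 and 1.23 CPM in CHES-1-like loss and 1.47, 1.44, 1.33 and 1.71 CPM in wild-type. *Gapdh2*, a glycolytic dehydrogenase, was in this class with an interaction of 0.94 ± 0.21, and *vg*, a cofactor of muscle and wing identity, with 0.76 ± 0.25 (adjusted p = 0.062). The call of *vg* was lost without double loss replicate 1, jumu loss replicate 3 or 4 or wild-type replicate 1, at an adjusted p of up to 0.14.

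Synergistic genes were the fewest and nearly all followed the jumu loss. A jumu loss passed for 39 of the 43 and a CHES-1-like loss for 4, and in no gene did both pass. The double loss was lower than wild-type in 24 and higher in 19. *Skp2*, the substrate-binding subunit of an SCF ubiquitin ligase (FBgn0037236, 3R:4334879-4337674), had 0.704, 1.07, 1.05 and 1.29 CPM in double loss, 2.22, 2.41, 1.96 and 1.58 CPM in jumu loss, 18.6, 17.5, 20.4 and 19.9 CPM in CHES-1-like loss and 14.03, 15.6, 15.5 and 14.7 CPM in wild-type. The CHES-1-like loss libraries lay above the wild-type ones, yet on top of jumu loss the same loss took the level lower still. The interaction was -1.26 ± 0.19 (adjusted p = 1.34e-04), with -2.90 in jumu loss, 0.36 in CHES-1-like loss and -3.80 in double loss.

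*dp*, which encodes the giant apical matrix protein Dumpy (FBgn0053196, 2L:4477462-4614300), was 1 of the 4 genes whose passing single loss was that of *CHES-1-like*. It had 38.02, 33.8, 45.2 and 42.6 CPM in double loss, 104, 101, 111 and 105 CPM in jumu loss, 77.7, 87.8, 83.5 and 83.6 CPM in CHES-1-like loss and 125, 125, 120.0 and 125 CPM in wild-type. The 4 groups did not overlap. The interaction was -0.82 ± 0.11 (adjusted p = 2.70e-05). *mars*, a protein of the mitotic spindle, had 9.99 ± 0.6703 CPM in double loss, 15.1 ± 0.4304 CPM in jumu loss, 36.99 ± 2.48 CPM in CHES-1-like loss and 34.8 ± 0.883 CPM in wild-type (SD, n = 4; interaction -0.69 ± 0.10), and *dah*, a membrane protein of cellularization, 2.34 to 5.98 CPM in double loss, 5.64 to 6.08 CPM in jumu loss, 17.7 to 23.2 CPM in CHES-1-like loss and 13.5 to 14.9 CPM in wild-type (interaction -0.82 ± 0.24). Of the genes that were higher, *Hand*, the bHLH factor of heart, visceral muscle and lymph gland (FBgn0032209, 2L:10292679-10295385), had 9.62, 11.99, 7.59 and 8.11 CPM in double loss, 6.18, 7.03, 6.12 and 5.02 CPM in jumu loss, 3.13, 2.02, 2.87 and 3.08 CPM in CHES-1-like loss and 4.03, 3.15, 4.45 and 3.28 CPM in wild-type. Its double loss libraries lay above all others, and those of CHES-1-like loss mostly below wild-type. The interaction was 0.96 ± 0.23 (adjusted p = 0.0095) and 0.81 without double loss replicate 2. *MtnA*, a metallothionein, had 6.47 to 9.24 CPM in double loss, 3.61 to 4.496 CPM in jumu loss, 1.35 to 3.31 CPM in CHES-1-like loss and 2.26 to 2.71 CPM in wild-type (interaction 1.11 ± 0.24), and *loh*, an ADAMTS-like matrix protein of the heart, 7.43 to 9.05 CPM in double loss, 6.14 to 6.87 CPM in jumu loss, 2.603 to 2.93 CPM in CHES-1-like loss and 3.003 to 3.95 CPM in wild-type (interaction 0.76 ± 0.15). The call of *cpx*, the synaptic complexin, at 0.77 ± 0.28 (adjusted p = 0.095) ended without double loss replicate 2, at 0.49, and without any 1 of 9 other libraries, at an adjusted p of up to 0.20.

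Of the 433 masking genes, CHES-1-like loss alone passed for 233, jumu loss alone for 138 and both for 62, and the interaction was below 0 for 201 (1.64% of genes tested). In each of them the double loss did not pass against wild-type. *Trpgamma*, a cation channel of the TRP family (FBgn0032593, 2L:16663454-16676701), had 1.14, 1.35, 1.61 and 2.05 CPM in double loss, 1.59, 1.33, 1.403 and 1.505 CPM in jumu loss, 35.7, 34.6, 33.2 and 33.3 CPM in CHES-1-like loss and 2.03, 1.58, 1.501 and 1.67 CPM in wild-type. Only the CHES-1-like loss libraries carried it at a high level, and the double loss libraries showed none of that excess. The interaction was -4.18 ± 0.20 (adjusted p = 1.36e-11). The converse held for *FASN3*, a fatty acid synthase, with 2.01, 2.22, 2.56 and 2.79 CPM in double loss, 44.1, 39.3, 36.1 and 35.5 CPM in jumu loss, 1.37, 0.868, 1.69 and 1.105 CPM in CHES-1-like loss and 2.35, 2.11, 2.48 and 2.79 CPM in wild-type and an interaction of -3.03 ± 0.21 (adjusted p = 3.67e-09).

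*Snoo*, the fly Ski and Sno relative that modulates TGF-beta signals, had 32.4 ± 9.74 CPM in double loss, 116 ± 19.8 CPM in jumu loss, 34.3 ± 4.37 CPM in CHES-1-like loss and 22.8 ± 1.28 CPM in wild-type (SD, n = 4) and an interaction of -2.44 ± 0.22. *GIIIspla2*, a secreted phospholipase, had 1.61 to 2.58 CPM in double loss, 6.68 to 7.54 CPM in jumu loss, 1.25 to 1.55 CPM in CHES-1-like loss and 1.25 to 1.78 CPM in wild-type (interaction -1.83 ± 0.23). Both were thus highest in jumu loss. On the other side, *Sdic3*, a copy of the sperm dynein intermediate chain family whose members share nearly all of their sequence, had 31.6 to 40.3 CPM in double loss, 8.07 to 8.802 CPM in jumu loss, 26.8 to 31.4 CPM in CHES-1-like loss and 26.2 to 30.5 CPM in wild-type, with an interaction of 2.03 ± 0.12. It was low in jumu loss only, but reads cannot be told apart between its copies. *Gld*, a glucose dehydrogenase, had 3.18 to 3.53 CPM in double loss, 2.66 to 2.79 CPM in jumu loss, 0.482 to 1.47 CPM in CHES-1-like loss and 1.67 to 3.01 CPM in wild-type (interaction 1.53 ± 0.27) and *Cht7*, a chitinase, 2.58 to 3.89 CPM in double loss, 1.73 to 2.67 CPM in jumu loss, 1.27 to 1.83 CPM in CHES-1-like loss and 3.05 to 3.65 CPM in wild-type (interaction 1.63 ± 0.25), both lowest in CHES-1-like loss. *Cyp6a23*, a cytochrome P450, fell in jumu loss and rose in CHES-1-like loss, at 5.53, 2.86, 5.89 and 6.28 CPM in double loss, 1.01, 0.633, 1.37 and 1.46 CPM in jumu loss, 6.28, 8.97, 8.84 and 9.18 CPM in CHES-1-like loss and 4.24, 4.81, 5.72 and 5.55 CPM in wild-type (interaction 1.42 ± 0.31).

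**Figure D3:**
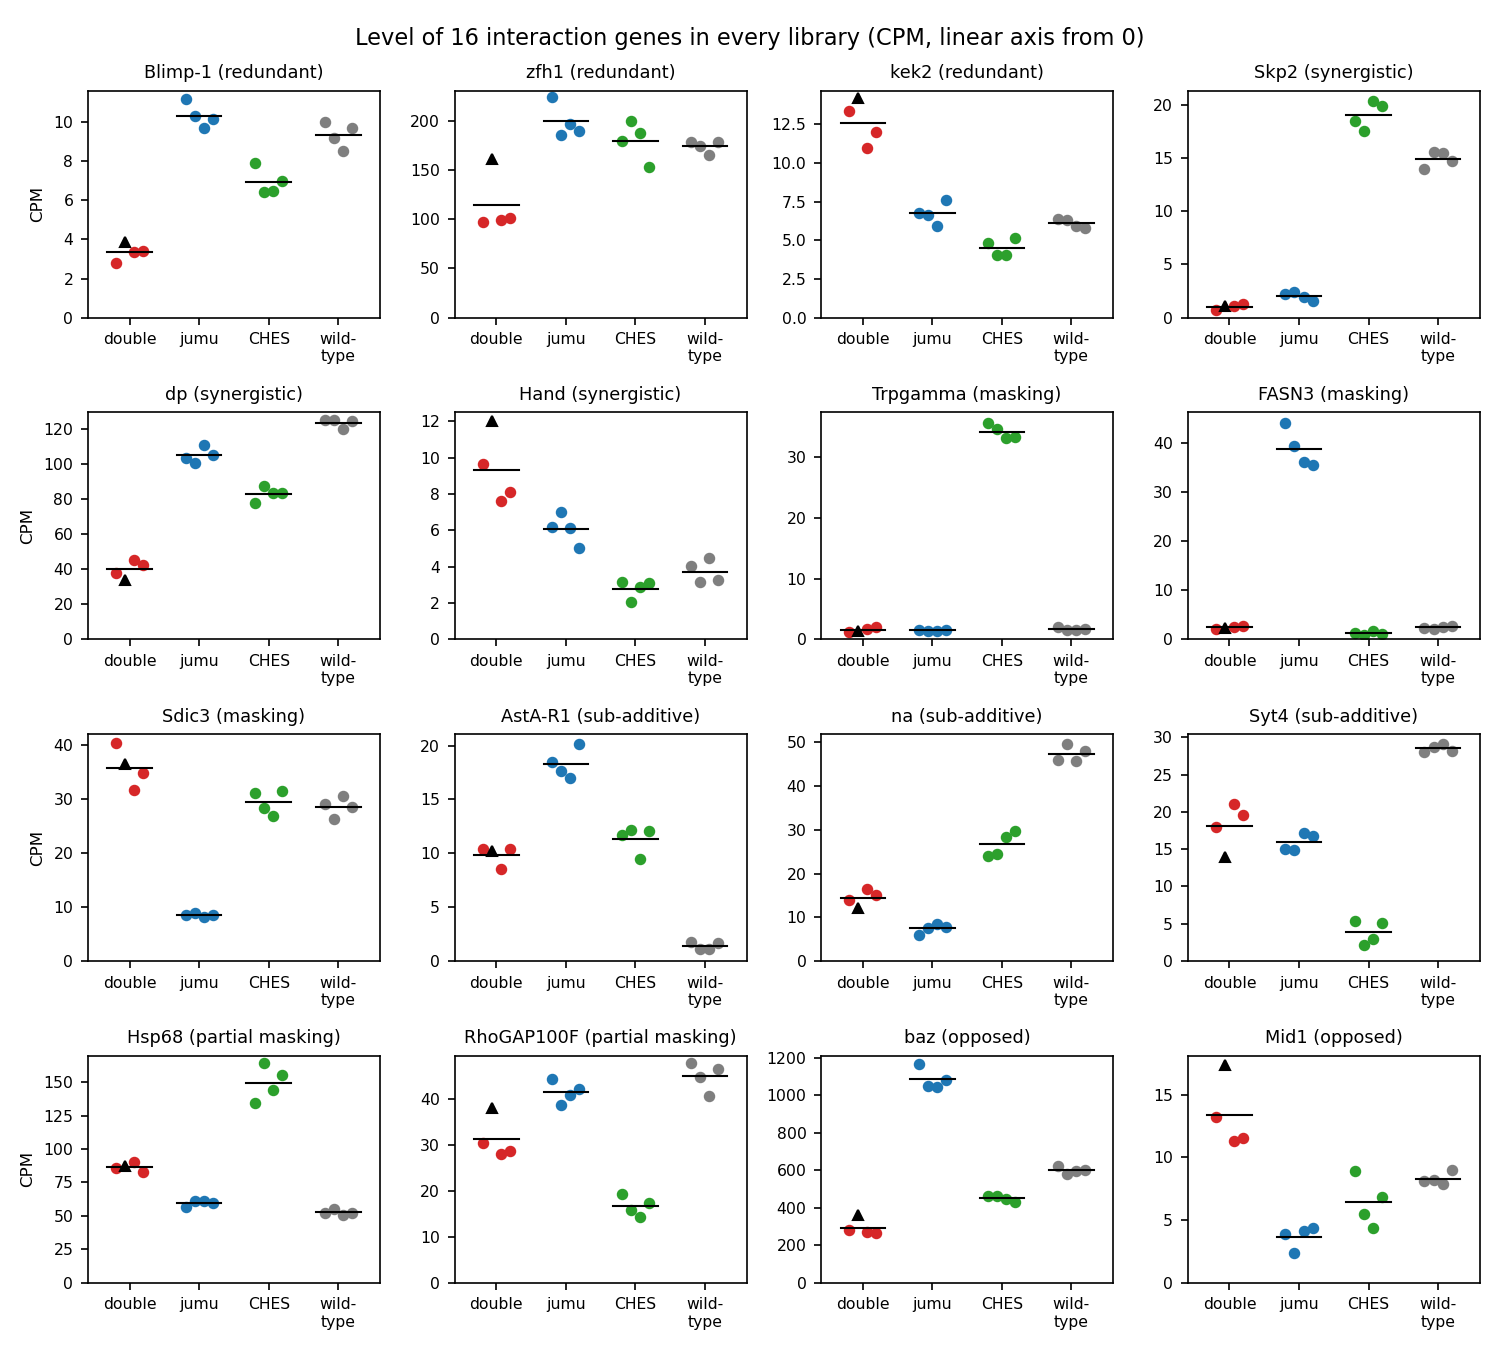
Level in CPM of 16 called genes in each library of double loss, jumu loss, CHES-1-like loss and wild-type, with horizontal bars at the means and double loss replicate 2 as a black triangle. *Blimp-1* is lowest in double loss and, at 6.46 to 7.92 CPM, somewhat lower in CHES-1-like loss than in wild-type. *Trpgamma* is high only in CHES-1-like loss at 33.2 to 35.7 CPM, and *AstA-R1* low only in wild-type.

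Sub-additive genes had the largest departures, with a median absolute interaction of 2.05. It was 1.555 for opposed, 1.16 for masking, 1.05 for partial masking, 0.94 for redundant and 0.78 for synergistic genes. For 55 of the 271 a group had 3 counts or fewer in each of its libraries, where counts give no usable fold. The class also requires both single losses to pass, which favours large departures. The level was lower than in wild-type in 151 of the 271 and higher in 120 (0.981% of genes tested, with interactions below 0). *AstA-R1*, a receptor for the neuropeptide allatostatin A (FBgn0266429, X:3574536-3666724), had 10.4, 10.2, 8.51 and 10.4 CPM in double loss, 18.5, 17.7, 16.95 and 20.1 CPM in jumu loss, 11.7, 12.1, 9.43 and 12.1 CPM in CHES-1-like loss and 1.79, 1.103, 1.097 and 1.69 CPM in wild-type. Each loss alone brought the level to that of the double loss or above it. The interaction was -3.83 ± 0.19 (adjusted p = 2.02e-11). *GstD9*, a glutathione transferase, had 8.62 to 11.4 CPM in double loss, 27.9 to 30.2 CPM in jumu loss, 6.41 to 10.4 CPM in CHES-1-like loss and 1.27 to 2.86 CPM in wild-type (interaction -3.28 ± 0.21), and *Abl*, the tyrosine kinase, 476 ± 198 CPM in double loss, 2056 ± 299 CPM in jumu loss, 445 ± 40.9 CPM in CHES-1-like loss and 243 ± 15.6 CPM in wild-type (SD, n = 4), with an interaction of -2.99 ± 0.26 and of -3.32 without double loss replicate 2.

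Among sub-additive genes that were lower, *Syt4*, a synaptotagmin of postsynaptic vesicles, had 18.04, 13.98, 21.1 and 19.5 CPM in double loss, 15.1, 14.9, 17.1 and 16.7 CPM in jumu loss, 5.35, 2.12, 2.95 and 5.03 CPM in CHES-1-like loss and 28.02, 28.7, 29.1 and 28.2 CPM in wild-type. Its CHES-1-like loss libraries were lowest, and the double loss lay at the jumu loss level. The interaction was 2.93 ± 0.23 (adjusted p = 2.56e-08). *na*, a sodium leak channel, had 12.1 to 16.4 CPM in double loss, 5.88 to 8.52 CPM in jumu loss, 24.1 to 29.8 CPM in CHES-1-like loss and 45.8 to 49.7 CPM in wild-type (interaction 1.78 ± 0.15), *Nlg1*, a neuroligin, 4.23 to 4.92 CPM in double loss, 2.53 to 4.49 CPM in jumu loss, 6.17 to 7.76 CPM in CHES-1-like loss and 15.01 to 18.9 CPM in wild-type (interaction 1.65 ± 0.19), and *alpha-Est7*, a carboxylesterase, 3.34 to 4.93 CPM in double loss, 2.34 to 3.61 CPM in jumu loss, 3.31 to 3.76 CPM in CHES-1-like loss and 6.65 to 7.39 CPM in wild-type (interaction 1.41 ± 0.20). *kek1*, a feedback inhibitor of the EGF receptor, was lower in each mutant group than in wild-type, with 1.73 to 3.22 CPM in double loss, 1.71 to 2.21 CPM in jumu loss, 0.386 to 0.811 CPM in CHES-1-like loss and 14.99 to 16.1 CPM in wild-type and an interaction of 4.61 ± 0.24 (adjusted p = 6.17e-11). For *alpha-Est7* the wild-type alone stood apart by the pairwise rule.

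Partial masking was seen for 62 genes that followed jumu loss and 33 that followed CHES-1-like loss. *Oaz*, a zinc finger transcription factor, had 2.82 to 5.01 CPM in double loss, 9.79 to 11.3 CPM in jumu loss, 1.03 to 1.54 CPM in CHES-1-like loss and 1.16 to 1.76 CPM in wild-type (interaction -1.23 ± 0.25), so that the double loss kept only part of the rise of jumu loss. *Dif*, an NF-kappaB factor of the Toll pathway, had 1.71 to 2.22 CPM in double loss, 3.29 to 4.59 CPM in jumu loss, 0.884 to 2.08 CPM in CHES-1-like loss and 1.16 to 1.33 CPM in wild-type (interaction -1.24 ± 0.28). *RhoGAP100F*, the fly SYD-1 protein of synapses, followed CHES-1-like loss, with 31.2 ± 4.65 CPM in double loss, 41.4 ± 2.29 CPM in jumu loss, 16.7 ± 2.17 CPM in CHES-1-like loss and 44.8 ± 3.103 CPM in wild-type (SD, n = 4) and an interaction of 1.00 ± 0.14. *sda*, an aminopeptidase, had 5.26 to 7.35 CPM in double loss, 7.03 to 8.03 CPM in jumu loss, 2.99 to 4.33 CPM in CHES-1-like loss and 8.32 to 11.7 CPM in wild-type (interaction 1.15 ± 0.18).

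Opposed genes numbered 158, with 79 in each direction. *baz*, the Par-3 scaffold of epithelial polarity, had 279, 359.6, 270.2 and 265 CPM in double loss, 1165, 1047, 1042 and 1082 CPM in jumu loss, 464, 463, 448 and 432 CPM in CHES-1-like loss and 623, 579, 597 and 599 CPM in wild-type. It rose in jumu loss, was somewhat lower in CHES-1-like loss and was lowest in double loss, with no overlap between groups. The interaction was -1.48 ± 0.12 (adjusted p = 4.80e-08). *Mid1*, a subunit of a stretch-activated calcium channel, fell in jumu loss and rose in double loss, with 13.2, 17.4, 11.3 and 11.5 CPM in double loss, 3.93, 2.34, 4.09 and 4.33 CPM in jumu loss, 8.92, 5.496, 4.34 and 6.86 CPM in CHES-1-like loss and 8.14, 8.16, 7.85 and 8.996 CPM in wild-type and an interaction of 2.12 ± 0.26 (adjusted p = 1.20e-05). Most of its CHES-1-like loss libraries lay below wild-type, as for *baz*, but that at 8.92 CPM lay within the wild-type range. *wisp*, a cytoplasmic poly(A) polymerase of the egg, had 7.62 to 9.24 CPM in double loss, 10.7 to 11.6 CPM in jumu loss, 28.4 to 33.2 CPM in CHES-1-like loss and 13.7 to 14.9 CPM in wild-type (interaction -1.5 ± 0.11), and *Mec2*, a stomatin-like protein, 1.47 to 3.29 CPM in double loss, 5.49 to 6.59 CPM in jumu loss, 3.94 to 4.83 CPM in CHES-1-like loss and 3.22 to 4.25 CPM in wild-type (interaction -1.56 ± 0.24). *nolo*, an ADAMTS-like protein, had 5.901 to 7.31 CPM in double loss, 3.17 to 3.895 CPM in jumu loss, 1.18 to 1.77 CPM in CHES-1-like loss and 2.19 to 3.999 CPM in wild-type (interaction 2.13 ± 0.23). *GluClalpha* and *nAChRalpha5*, subunits of glutamate-gated and acetylcholine-gated channels, had interactions of 1.75 ± 0.31 and 1.80 ± 0.34 and were lowest in CHES-1-like loss.

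Genes that were all but absent from a group are given as raw counts, since a fitted fold then rests on the prior count. For 120 of the 1496 called genes at least 1 group had 3 counts or fewer in each of its libraries, and these included the largest interactions. *CCHa1-R*, a receptor of the CCHamide-1 peptide, had 808, 672, 1322 and 1681 counts in double loss, 1, 1, 4 and 11 in jumu loss, 1, 0, 1 and 1 in CHES-1-like loss and 234, 86, 45 and 207 in wild-type. It was nearly lost with either deletion and well above wild-type with both. *Tk*, the tachykinin precursor, had 2, 1, 2 and 7 counts in double loss, 3, 2, 1 and 3 in jumu loss, 368, 89, 121 and 514 in CHES-1-like loss and 5, 4, 2 and 7 in wild-type. *CG32564* had 2, 0, 2 and 5 counts in double loss, 264, 93, 401 and 350 in jumu loss, 1, 0, 1 and 1 in CHES-1-like loss and 3, 1, 0 and 1 in wild-type. These last were confined to a single mutant group.

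*CG33337* had 0, 0, 2 and 0 counts in double loss, 2, 0, 0 and 0 in jumu loss, 0, 1, 0 and 1 in CHES-1-like loss and 1277, 921, 316 and 1298 in wild-type. The wild-type alone carried the transcript above 2 counts, so that a lower level in double loss than in the single losses could not be measured. *mthl12*, a methuselah-like receptor, had 79, 59, 165 and 230 counts in double loss, 0, 0, 1 and 0 in jumu loss, 0, 0, 0 and 1 in CHES-1-like loss and 1, 0, 0 and 0 in wild-type, and so was above 1 count only where both genes were deleted. *mthl8*, of the same family, had 977, 749, 2094 and 2338 counts in double loss, 1346, 448, 1861 and 1472 in jumu loss, 6, 4, 2 and 16 in CHES-1-like loss and none in wild-type. It was thus present wherever the *jumu* region was deleted. The interaction calls of *CG33337* and *mthl12* rested on 1 or 2 counts in a group otherwise at 0, and were lost at an adjusted p of 1 without double loss replicate 3 and without wild-type replicate 1. Among genes with counts in every group, *Cyp4p2*, a cytochrome P450, had 13.3 to 17.1 CPM in double loss, 0.161 to 0.697 CPM in jumu loss, 0.0964 to 0.324 CPM in CHES-1-like loss and 8.68 to 9.71 CPM in wild-type, and *Mctp*, a C2-domain transmembrane protein, 1.68 to 2.04 CPM in double loss, 3.47 to 4.05 CPM in jumu loss, 17.5 to 21.4 CPM in CHES-1-like loss and 0.171 to 0.577 CPM in wild-type. Presence and absence of this kind can come with a strain as well as with a deletion, and the design does not separate them.

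Heat shock genes departed from additivity together. Of 17 heat shock and chaperone genes tested, 11 (64.7%, against 12.2% over all genes tested) were called, and all 11 had an interaction below 0. The called genes include near-identical Hsp70 copies, described below, so the 11 are not all separate members and the share counts such copies individually. The median over the list was -1.14, against 0.04 over all genes tested. Under raw library totals 5 genes of the list were called below 0 and 4 above 0, and with protein-coding totals 11 below 0. *Hsp26*, a small chaperone, had 11.5, 10.4, 13.97 and 11.8 CPM in double loss, 12.9, 12.9, 13.3 and 12.00 CPM in jumu loss, 47.2, 56.4, 47.4 and 49.3 CPM in CHES-1-like loss and 7.01, 9.06, 8.84 and 7.31 CPM in wild-type. *Hsp23*, another of that kind, had 18.9 to 20.99 CPM in double loss, 22.02 to 23.6 CPM in jumu loss, 53.4 to 60.3 CPM in CHES-1-like loss and 11.1 to 12.8 CPM in wild-type. Both were highest in CHES-1-like loss, and the jumu and double loss libraries lay near each other above wild-type. Their interactions were -2.74 ± 0.14 (adjusted p = 4.96e-11) and -2.47 ± 0.10 (adjusted p = 8.56e-13).

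The Hsp70 genes are near-identical copies, so that reads can be split between them by the counting. *Hsp70Aa* and *Hsp70Ab* moved alike, with 203 ± 12.5 CPM in double loss, 203 ± 5.89 CPM in jumu loss, 504 ± 18.04 CPM in CHES-1-like loss and 125 ± 4.42 CPM in wild-type (SD, n = 4) for *Hsp70Aa* and interactions of -2.00 ± 0.09 and -2.00 ± 0.09. *Hsp70Bb*, *Hsp70Bbb* and *Hsp70Bc* of the B cluster were lower in double loss and in jumu loss than in wild-type, with 9.56 ± 0.533 CPM in double loss, 13.1 ± 1.11 CPM in jumu loss, 38.5 ± 3.51 CPM in CHES-1-like loss and 20.7 ± 1.36 CPM in wild-type (SD, n = 4) for *Hsp70Bc*, and all called B copies were classed as opposed. *Hsp68*, an inducible relative, had 85.5, 87.1, 90.2 and 83.1 CPM in double loss, 56.4, 60.8, 60.8 and 59.4 CPM in jumu loss, 134, 164, 144 and 155 CPM in CHES-1-like loss and 51.9, 55.3, 50.9 and 52.3 CPM in wild-type, and *DnaJ-1*, a cochaperone, 137 to 199 CPM in double loss, 128 to 152 CPM in jumu loss, 237 to 278 CPM in CHES-1-like loss and 121 to 125 CPM in wild-type, with interactions of -0.96 ± 0.09 and -0.89 ± 0.14. *Hsp27* was raised in each single loss and not in the double loss, at 3.37 to 5.798 CPM in double loss, 7.298 to 8.44 CPM in jumu loss, 6.56 to 8.11 CPM in CHES-1-like loss and 4.27 to 4.78 CPM in wild-type (interaction -1.65 ± 0.20). The constitutive chaperones *Hsp83*, *Hsc70-3* and *Hsc70-4* and the regulator *Hsf* were not called, with interactions of -0.05, -0.34, 0.08 and -0.14. Of the called heat shock genes given here all but *Hsp27* were highest in CHES-1-like loss, the group with the largest rRNA share of counts, 29% to 32.6%, against 20.5% to 22.9% in wild-type. The part of RNA quality or sorting in these levels was not tested.

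Of 16 hemocyte genes tested 9 (56.2%, against 12.2% over all genes tested) were called, and the list's median was -0.69. Of the 9 called genes 8 lay below the sum of the single losses (interaction below 0). Under raw library totals none of the 8 remained below 0 and 7 genes were called above 0, and with protein-coding totals 7 were called below 0. *gcm*, the master regulator of plasmatocytes and of glia, had 49.6, 52.1, 44.96 and 46.6 CPM in double loss, 75.4, 63.01, 63.9 and 67.8 CPM in jumu loss, 88.7, 71.6, 77.1 and 74.2 CPM in CHES-1-like loss and 56.8, 57.8, 57.2 and 54.99 CPM in wild-type. Its single losses lay above wild-type and its double loss at or below it. The interaction was -0.95 ± 0.11 (adjusted p = 4.25e-06). *srp*, the GATA factor of blood cells, had 206 ± 11.4 CPM in double loss, 258 ± 9.45 CPM in jumu loss, 289.9 ± 14.9 CPM in CHES-1-like loss and 219.8 ± 4.88 CPM in wild-type (SD, n = 4; interaction -0.72 ± 0.09), *ush*, its FOG cofactor, 46.7 to 63.8 CPM in double loss, 77.97 to 91.5 CPM in jumu loss, 72.7 to 82.1 CPM in CHES-1-like loss and 62.1 to 70.7 CPM in wild-type (interaction -0.94 ± 0.13), *Pvr*, the PDGF and VEGF receptor of migrating hemocytes, 216 to 226 CPM in double loss, 254 to 262 CPM in jumu loss, 272 to 282 CPM in CHES-1-like loss and 189 to 193 CPM in wild-type (interaction -0.79 ± 0.08), and *Sr-CI*, a scavenger receptor, 88.02 to 155 CPM in double loss, 125 to 141 CPM in jumu loss, 105 to 123 CPM in CHES-1-like loss and 71.2 to 79.6 CPM in wild-type (interaction -0.90 ± 0.18). *He*, called above 0, had at most 3 counts in each library of both single losses and at most 15 in any library, and its call was lost without any 1 of 9 libraries.

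The summed level of the hemocyte markers *srp*, *Hml*, *crq* and *Pvr* was 625.5 to 634 CPM in double loss, 703 to 723.4 CPM in jumu loss, 761.1 to 785.4 CPM in CHES-1-like loss and 546.6 to 561.7 CPM in wild-type. The 4 groups did not overlap, and the double loss lay between wild-type and the single losses. *Hml* (0.09) and *crq* (-0.46) were not called for the interaction, and neither were *NimC1* (-0.81) and *lz* (0.10). Whether the sorted population held different shares of hemocytes was not tested.

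**Figure D4:**
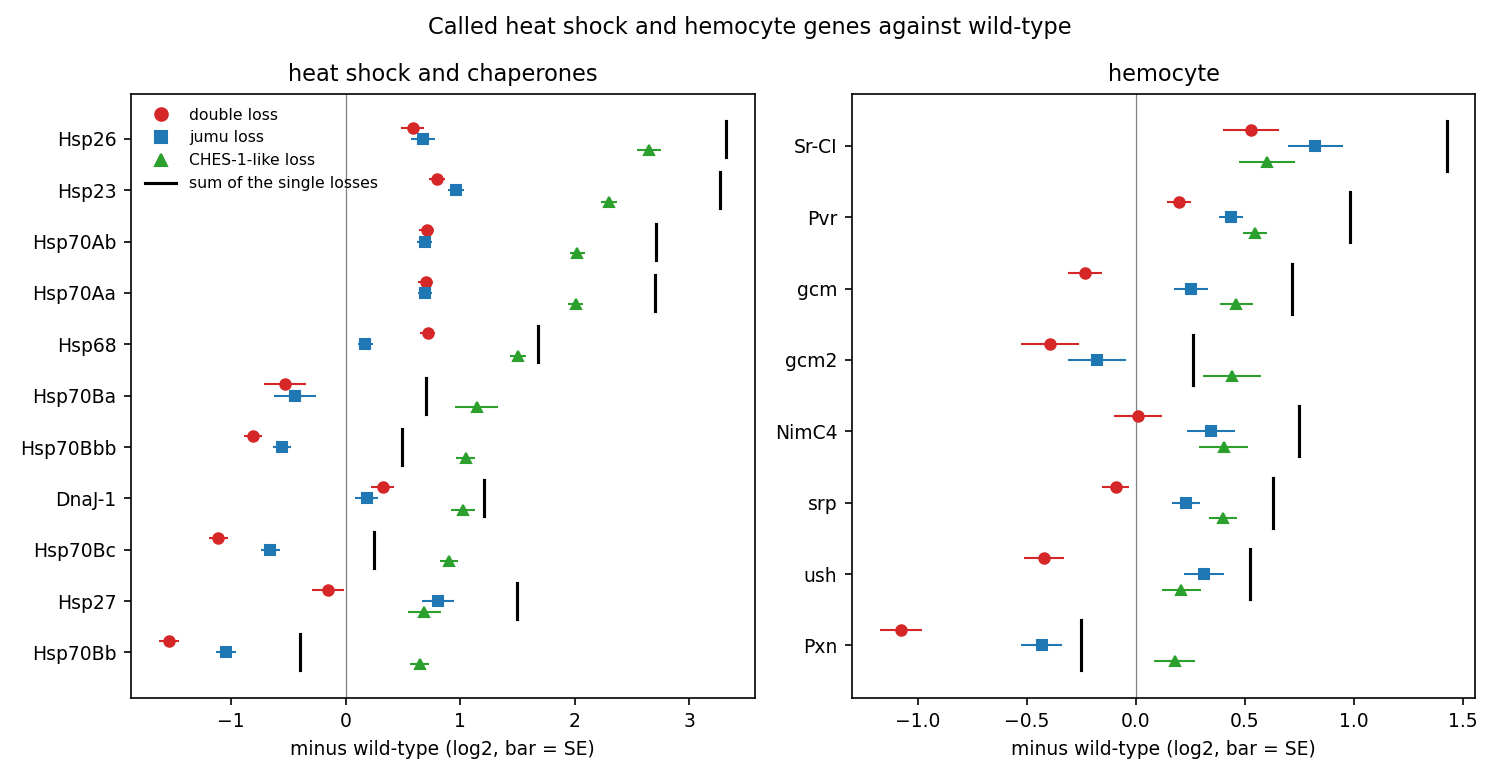
Log2 difference from wild-type (point, with SE) in double loss, jumu loss and CHES-1-like loss for 11 called heat shock genes and 8 called hemocyte genes, with the sum of the single losses as a black bar. All double loss points lie left of their bar.

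Of 20 genes of basement membrane and matrix, 7 (35%, against 12.2% over all genes tested) were called, 5 below 0 and 2 above. With protein-coding totals the counts were 5 and 3, and with raw library totals none was below 0. *Cg25C*, a collagen IV chain, had 255 to 334 CPM in double loss, 411 to 463 CPM in jumu loss, 258 to 267 CPM in CHES-1-like loss and 222 to 233 CPM in wild-type, with an interaction of -0.71 ± 0.11. Its partner chain *vkg* had 214 to 272 CPM in double loss, 322 to 353 CPM in jumu loss, 193 to 204 CPM in CHES-1-like loss and 165 to 171 CPM in wild-type, with an interaction of -0.65 ± 0.10. Both were highest in jumu loss. *Ppn*, the proteoglycan papilin of hemocyte-made matrix, had 4123 ± 264 CPM in double loss, 5407 ± 149 CPM in jumu loss, 5855 ± 83.04 CPM in CHES-1-like loss and 4198 ± 140.2 CPM in wild-type (SD, n = 4) and an interaction of -0.87 ± 0.10 (adjusted p = 4.94e-06), with differences from wild-type of -0.03 in double loss, 0.37 in jumu loss and 0.48 in CHES-1-like loss, none of which reached 0.5. *prc*, the pericardin collagen of the heart, went the other way, with 7.78 to 9.22 CPM in double loss, 11.03 to 12.1 CPM in jumu loss, 1.23 to 1.55 CPM in CHES-1-like loss and 3.31 to 4.73 CPM in wild-type and an interaction of 1.07 ± 0.17. On the linear scale its double loss lay below the sum of the changes in CPM, so that its direction rests on the log2 scale. The laminin chains *LanA*, *LanB1* and *LanB2* were not called, at -0.28, -0.22 and -0.31.

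Of 17 cardiac specification factors 4 (23.5%, against 12.2% over all genes tested) were called, *Hand* above 0 and *zfh1*, *ush* and *pnr* below 0. This held with protein-coding totals but not with raw library totals, under which no factor was below 0. *pnr*, the GATA factor of the dorsal mesoderm and heart, had 59.7 to 70.9 CPM in double loss, 70.7 to 73.6 CPM in jumu loss, 81.96 to 86.7 CPM in CHES-1-like loss and 58.4 to 62.2 CPM in wild-type, with an interaction of -0.62 ± 0.09 (adjusted p = 4.69e-05). *tin* (-0.15), *Doc1* (-0.15), *mid* (-0.07), *svp* (0.36) and *Mef2* (0.24) were not called. *bap*, the visceral mesoderm homeobox gene, and *HLH54F*, the regulator of caudal visceral muscle, had interactions of -0.67 ± 0.12 and -0.59 ± 0.09, with 9.25 to 9.87 CPM in double loss, 11.3 to 12.6 CPM in jumu loss, 9.52 to 11.96 CPM in CHES-1-like loss and 7.796 to 8.98 CPM in wild-type for *bap*. The call of *HLH54F* was lost with protein-coding totals, at -0.50. Both turned with raw library totals, to 0.37 for *bap* and 0.46 for *HLH54F*, and with totals without rRNA genes, to 0.10 and 0.19.

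None of the 3 Fox targets named by the study was called for the interaction. The study cites earlier work in which both factors redundantly activate *htl* and *fz*, and places heart progenitor specification in a subset of the mesoderm. Levels given here are those of all sorted cells together. *htl* had 97.4, 92.6, 98.96 and 97.9 CPM in double loss, 80.5, 87.6, 83.6 and 88.9 CPM in jumu loss, 59.5, 67.9, 63.4 and 64.5 CPM in CHES-1-like loss and 75.4, 73.3, 81.5 and 72.2 CPM in wild-type. Its double loss libraries lay above and its CHES-1-like loss libraries below all wild-type libraries, while those of jumu loss overlapped them. Its interaction of 0.43 ± 0.09 had an adjusted p of 0.003 but did not reach 0.5, and rose to 0.51 with protein-coding totals. *fz* had 108 to 128 CPM in double loss, 110.1 to 115 CPM in jumu loss, 120.1 to 124 CPM in CHES-1-like loss and 135 to 141 CPM in wild-type and an interaction of 0.18 ± 0.09 (adjusted p = 0.22), and *polo*, the mitotic kinase, 186 to 219.9 CPM in double loss, 164 to 171 CPM in jumu loss, 202 to 217 CPM in CHES-1-like loss and 186 to 199 CPM in wild-type and 0.09 ± 0.09 (adjusted p = 0.69).

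Of 21 cell division genes that the study chose from these jumu loss and wild-type libraries, 2 (9.52%, against 12.2% over all genes tested) were called, both synergistic and lower, and neither was called with protein-coding totals. *Rx*, the retinal homeobox gene, had 0.469, 0.0397, 0.498 and 0.646 CPM in double loss, 0.987, 0.5699, 0.731 and 0.802 CPM in jumu loss, 8.55, 8.58, 8.62 and 7.804 CPM in CHES-1-like loss and 6.65, 7.68, 7.74 and 7.57 CPM in wild-type. The interaction was -0.94 ± 0.34 (adjusted p = 0.098), and -0.71 without double loss replicate 2, but the call was lost with protein-coding totals, at an adjusted p of 0.18, and without any 1 of 13 of the 16 libraries, at up to 0.21. *scra*, the anillin of the cleavage furrow, had 54.2 ± 1.75 CPM in double loss, 73.2 ± 0.828 CPM in jumu loss, 149 ± 1.74 CPM in CHES-1-like loss and 140.4 ± 3.44 CPM in wild-type (SD, n = 4) and an interaction of -0.52 ± 0.08 (adjusted p = 8.81e-05). With protein-coding totals it was -0.43, and it turned to 0.53 with raw library totals and 0.27 with totals without rRNA genes. The other 19 ranged from -0.45 (*Apc2*) to 1.06 (*alphaTub67C*), and the median over the list was -0.14. Summed over the 21 genes the level was 620.9 to 675.3 CPM in double loss and 646.6 to 670.3 CPM in jumu loss, against 1379 to 1436 CPM in CHES-1-like loss and 1282 to 1327 CPM in wild-type. Of 45 genes of G2 and mitosis 2 (4.44%, against 12.2% over all genes tested) were called, *scra* and the germline Cdc25 gene *twe* (-0.84 ± 0.18). The list's median interaction was -0.09, beside a median of -0.73 for jumu loss minus wild-type.

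Of 13 glycolysis genes tested 4 (30.8%, against 12.2% over all genes tested) were called, all above 0, while 4 of the 13 had an interaction below 0. With RLE factors and with protein-coding totals 4 were called above 0 and none below. Raw library totals and totals without rRNA genes put nearly all calls above 0, so the direction of this list cannot be read from them. *ImpL3*, the lactate dehydrogenase, had 16.4, 24.8, 16.8 and 16.8 CPM in double loss, 15.05, 17.4, 14.7 and 14.8 CPM in jumu loss, 19.1, 20.4, 19.7 and 19.1 CPM in CHES-1-like loss and 26.5, 31.3, 30.3 and 28.4 CPM in wild-type. Every mutant library lay below every wild-type library, and double loss and jumu loss lay at about the same level. Its interaction was 0.84 ± 0.16 (adjusted p = 0.0011). *Pfk*, phosphofructokinase, had 7.19 to 11.2 CPM in double loss, 7.92 to 9.12 CPM in jumu loss, 6.28 to 9.74 CPM in CHES-1-like loss and 10.5 to 11.7 CPM in wild-type (interaction 0.76 ± 0.18), and *Gapdh1* 1.75 to 3.15 CPM in double loss, 1.81 to 2.55 CPM in jumu loss, 1.78 to 2.700 CPM in CHES-1-like loss and 3.18 to 4.22 CPM in wild-type (interaction 0.74 ± 0.26). The call of *Gapdh1*, at an adjusted p of 0.085, was lost without any 1 of 11 libraries, at up to 0.21.

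Of 22 neural genes 6 (27.3%, against 12.2% over all genes tested) were called, 5 above 0 and 1 below. *Syt1*, the calcium sensor of synaptic vesicles, had 1.74 to 3.57 CPM in double loss, 1.84 to 2.07 CPM in jumu loss, 0.193 to 0.706 CPM in CHES-1-like loss and 0.842 to 1.16 CPM in wild-type, with an interaction of 1.5 ± 0.37. *brp*, of the active zone, had 2.48 to 3.18 CPM in double loss, 1.77 to 3.21 CPM in jumu loss, 0.289 to 1.03 CPM in CHES-1-like loss and 1.33 to 2.16 CPM in wild-type, with an interaction of 1.09 ± 0.32. Both were lowest in CHES-1-like loss. *nerfin-1*, of neuronal differentiation, had an interaction of 0.60 ± 0.12. *SoxN*, of the neuroectoderm, was below 0 at -0.74 ± 0.14. The defining markers *elav* (0.30), *scrt* (0.33) and *repo* (0.29) were not called. Of 24 myofibril genes 6 (25%) were called, 4 above and 2 below 0. *Act88F* and *Act79B*, muscle actins, had interactions of -0.96 ± 0.19 and -0.93 ± 0.16, and *Prm*, paramyosin, 0.89 ± 0.29 with its lowest level in CHES-1-like loss. The call of *Prm* was lost without any 1 of 8 libraries, at an adjusted p of up to 0.17, and that of *brp* without CHES-1-like loss replicate 1 or wild-type replicate 4, at up to 0.10. Of 53 cytochrome P450 genes tested 15 (28.3%, against 12.2% over all genes tested) were called, 8 above and 7 below 0, and without double loss replicate 2 14 above and 8 below.

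**Figure D5:**
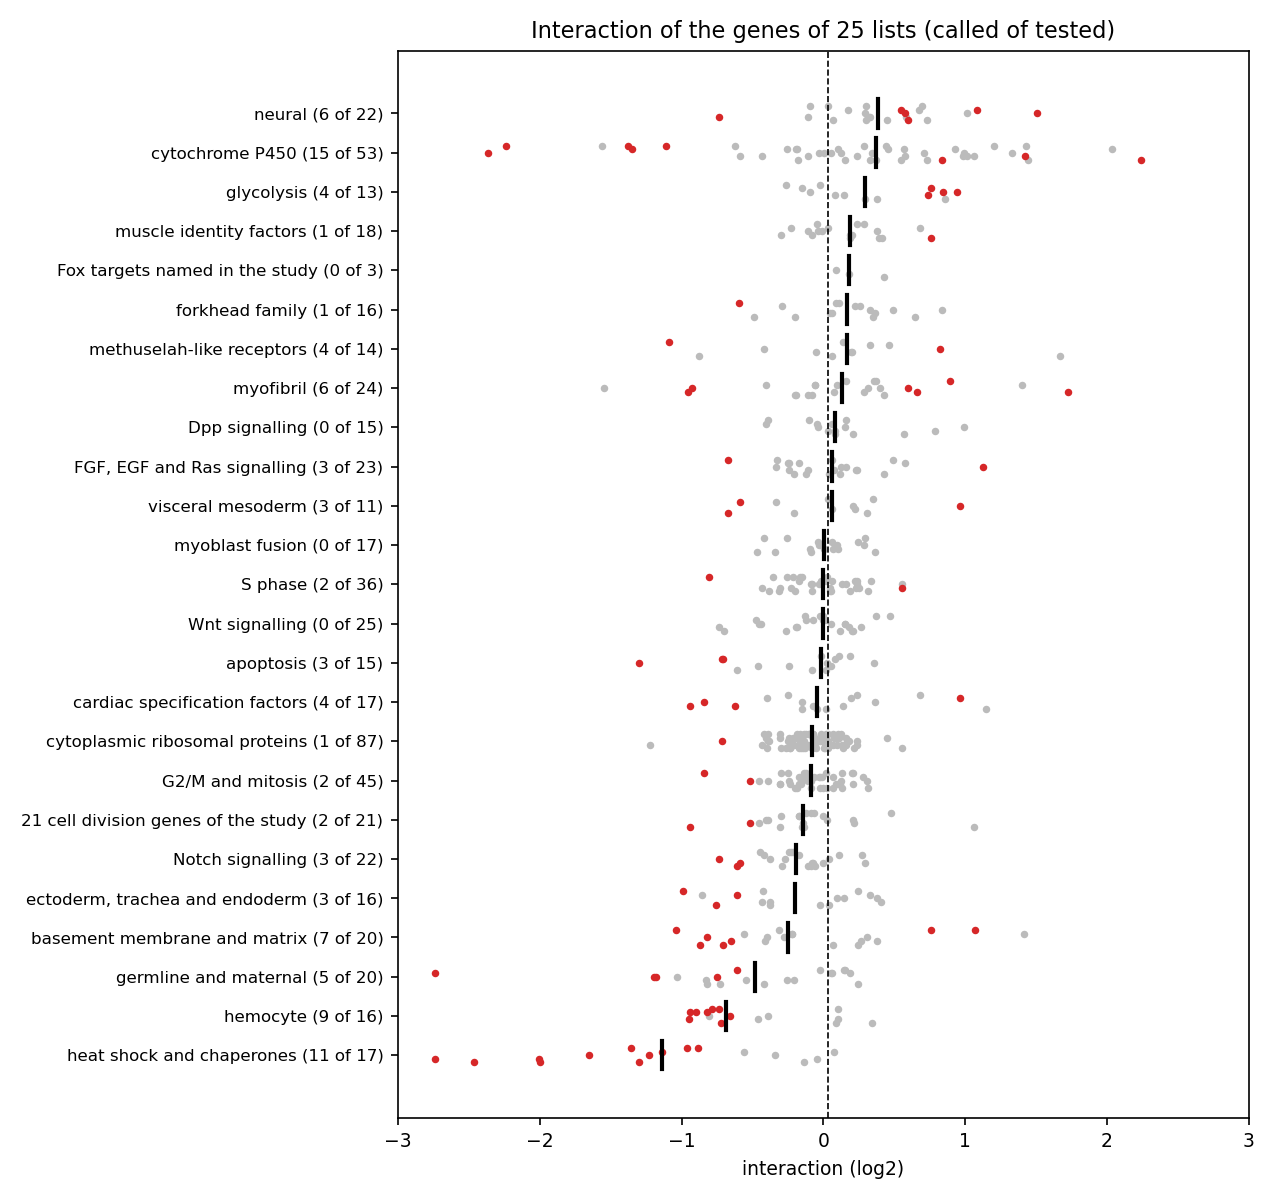
Interaction on the log2 scale of each tested gene in 25 gene lists, with called genes in red, the median of each list as a black bar and the median of all genes tested as a dashed line at 0.04. Genes with a group at 3 counts or fewer in every library and 4 genes beyond 3 in size are not drawn. The heat shock list lies farthest below 0, at a median of -1.14.

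The share called in the remaining lists ran on both sides of the 12.2% over all genes tested. For Wnt signalling (25 genes tested), Dpp signalling (15) and myoblast fusion (17) edgeR called none, while 6, 6 and 4 of their genes had an unadjusted p below 0.05 and DESeq2 called 0, 1 and 0. Without double loss replicate 2 edgeR called 1, 2 and 2 of them. In the FGF, EGF and Ras list 3 of 23 (13%) were called, *kek1*, *aop* and the FGF ligand *ths*, whose interaction of 1.13 ± 0.28 was 0.76 without double loss replicate 2. Of 22 Notch genes 3 (13.6%) were called, all below 0, and 5 without double loss replicate 2, among them *E(spl)m2-BFM* at -0.61 ± 0.12. Of 87 cytoplasmic ribosomal protein genes only *RpL23A* (1.15%) was called, at -0.72 ± 0.23 (adjusted p = 0.052). In the forkhead family *foxo*, the effector of insulin signalling, was called at -0.59 ± 0.19, with 16.4 to 27.6 CPM in double loss, 17.8 to 21.03 CPM in jumu loss, 20.5 to 23.1 CPM in CHES-1-like loss and 12.1 to 15.4 CPM in wild-type. Of 15 apoptosis genes 3 (20%) were called, all below 0. *grim*, an activator of cell death, had 1.32 to 1.67 CPM in double loss, 2.01 to 2.596 CPM in jumu loss, 4.63 to 5.302 CPM in CHES-1-like loss and 2.52 to 3.51 CPM in wild-type and an interaction of -1.30 ± 0.20, and *skl* one of -0.71 ± 0.15. Of 20 germline and maternal genes 5 (25%) were called, all below 0, among them *osk* (-1.20 ± 0.29), *tej* (-1.18 ± 0.37) and *bcd* (-0.75 ± 0.21). Of these genes 3 lost the call without a single library, *RpL23A* without jumu loss replicate 2 (adjusted p = 0.10) or wild-type replicate 1 (0.11), *foxo* without double loss replicate 1 (0.10) or jumu loss replicate 1 (0.11) and *tej* without double loss replicate 4 (0.13) or CHES-1-like loss replicate 4 (0.10).

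By chromosome arm the share of tested genes called was 9.79% on 2R, 11.7% on 2L and on 3R, 12.2% on 3L and 14.9% on X. On the small chromosome 4, 19 of 101 genes were called, 18 of them above 0, and on Y 9 of 35, all above 0. The X carries *CHES-1-like* and 3R carries *jumu*. Genotype and strain cannot be told apart for these shares either.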

How the data were processed

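RNA-seq counts per gene from sorted GFP-positive cells were used for 16 of 24 libraries, grouped by genotype label. Per the labels and the study's methods the libraries were stranded total RNA (TruSeq), and reads were mapped with TopHat2 at default settings to the Drosophila Release 6.05 annotation. SAMtools and HTSeq are named in the submitters' processing notes, and whether counting used strand is not given in the sources used here, so that overlapping genes may share reads. The authors deposited whole-number counts with no normalization, 15197022 to 72519855 a library.

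The counts were fitted with edgeR 4.0.16 in R 4.3.3 (limma 3.58.1), with TMM factors and 1 mean per group. Genes with at least 1 count were fitted (16455 of 17476), p-values were adjusted by Benjamini-Hochberg over all 17476 genes, and 12233 genes were kept after removal of the lowest 30% by mean log2 CPM. A call needed an adjusted p below 0.1 and an absolute log2 value above 0.5. Errors beside log2 values are standard errors derived from the F statistic. The functions were tested on simulated counts. Replicates are called biological in the labels, and no pair of libraries in a group differed by less than sampling noise. Coordinates and biotypes come from Ensembl release 115 (BDGP6.54).

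The genotypes, gene lists, classes and tests were chosen with earlier results of these data known. The 116 named genes are *jumu*, *CHES-1-like*, *htl*, *fz*, *polo* and *Rx*, up to 4 genes per class and direction by absolute interaction with at least 1 CPM in every group and no computed symbol, up to 4 called genes per list, and the 3 largest interactions in each direction with a group mean of at least 5 CPM. Genes with a group at 3 counts or fewer in every library are given as counts. Alternatives were RLE factors, other library totals, DESeq2 1.42.0, glmTreat, other filters and thresholds, all 24 libraries, a replicate block, class contrasts fitted on their own 8 libraries, the linear scale and each library left out.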

Additional observations from a re-analysis of the deposited data

Results flagged for a closer look

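In each group of 4 libraries the level of each of the 116 named genes was checked on the log2(CPM + 0.5) scale for a library far from the other 3, by the gap to the nearest library over the range of the group, as were the library totals and rRNA shares. Chance alone gives about 1 in 20 where levels are continuous and independent. The named genes share the same 16 libraries, however, and a gene above 0 in only 1 library of a group is always flagged. Of 472 groups looked at, 464 of gene levels and 8 of totals and shares, 44 held a library far from the other 3. Double loss replicate 2 accounted for 15 of them, for *nAChRalpha5* at 10.9 CPM (the others 5.26 to 5.77), *Cyp6a23* at 2.86 CPM (the others 5.53 to 6.28), *Nlg1* at 4.92 CPM (the others 4.23 to 4.29), *Cyp4p2* at 17.1 CPM (the others 13.3 to 13.8), *ths* at 36.02 CPM (the others 16.1 to 18.3), *foxo* at 27.6 CPM (the others 16.4 to 17.3), *ovo* at 23.03 CPM (the others 16.4 to 16.8), *ImpL3* at 24.8 CPM (the others 16.4 to 16.9), *CrebA* at 88.8 CPM (the others 41.3 to 46.3), *ush* at 63.8 CPM (the others 46.7 to 46.7), *fz* at 128 CPM (the others 108 to 110.0), *aop* at 156 CPM (the others 98.9 to 101), *zfh1* at 161 CPM (the others 97.5 to 101), *Pxn* at 154 CPM (the others 216 to 224) and *baz* at 359.6 CPM (the others 265 to 279). It was thus the extreme library for regulators and for matrix and channel genes alike, 13 times high and 2 times low. Without it the interactions were 1.52 for *nAChRalpha5*, 1.58 for *Cyp6a23*, 1.59 for *Nlg1*, 10.15 for *Cyp4p2*, 0.76 for *ths*, -0.79 for *foxo*, -0.75 for *ovo*, 0.70 for *ImpL3*, -1.09 for *CrebA*, -1.06 for *ush*, 0.13 for *fz*, -0.85 for *aop*, -1.05 for *zfh1*, -0.71 for *Pxn* and -1.59 for *baz*. How its cells differed from those of the other double loss libraries was not tested.

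The remaining 29 were spread over 11 libraries. In double loss replicate 3 it was *CG33337* at 0.0293 CPM (the others at 0) and *AstA-R1* at 8.51 CPM (the others 10.2 to 10.4). In double loss replicate 1 it was *HLH54F* at 25.4 CPM (the others 23.8 to 24.03). In jumu loss replicate 2 it was *He* at 0.127 CPM (the others 0.0149 to 0.0201), *brp* at 1.77 CPM (the others 2.93 to 3.21), *Mid1* at 2.34 CPM (the others 3.93 to 4.33), *Hsp70Bc* at 14.8 CPM (the others 12.6 to 12.6) and *ImpL3* at 17.4 CPM (the others 14.7 to 15.1). In jumu loss replicate 3 it was *mthl12* at 0.0149 CPM (the others at 0). In jumu loss replicate 1 it was *CG33337* at 0.0403 CPM (the others at 0), *GstD9* at 30.2 CPM (the others 27.9 to 28.1), *ths* at 16.6 CPM (the others 13.3 to 13.4), *foxo* at 21.03 CPM (the others 17.8 to 18.2), *CrebA* at 81.9 CPM (the others 65.4 to 66.3) and *E(spl)m4-BFM* at 98.7 CPM (the others 78.2 to 80.2). In CHES-1-like loss replicate 4 it was *Cyp318a1* at 0.0181 CPM (the others at 0), *mthl12* at 0.0181 CPM (the others at 0), *Rx* at 7.804 CPM (the others 8.55 to 8.62) and *Hsp70Bc* at 43.7 CPM (the others 36.2 to 37.03). In CHES-1-like loss replicate 2 it was *mthl3* at 0 CPM (the others 0.371 to 0.471), *GluClalpha* at 0.675 CPM (the others 1.34 to 1.399), *Mctp* at 17.4 CPM (the others 20.9 to 21.4) and *kek1* at 0.386 CPM (the others 0.736 to 0.811). In CHES-1-like loss replicate 1 it was *Cyp6a23* at 6.28 CPM (the others 8.84 to 9.18). In CHES-1-like loss replicate 3 it was *AstA-R1* at 9.43 CPM (the others 11.7 to 12.2). In wild-type replicate 1 it was *mthl12* at 0.0139 CPM (the others at 0), *Rx* at 6.65 CPM (the others 7.57 to 7.74) and *pnr* at 58.4 CPM (the others 61.6 to 62.2). In wild-type replicate 3 it was *dp* at 120.0 CPM (the others 125 to 125). Values of *CG33337*, *mthl12*, *He* and *Cyp318a1* here stand for 1 or a few counts.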

How the results depend on the processing

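The number of genes called was within 1.5 times the 1496 reported with DESeq2's median-ratio (RLE) factors (1497), DESeq2 (1744), no filter on low expression (1601), edgeR's filterByExpr (1645), an adjusted p below 0.05 (1200), all 24 libraries in the fit (1447), protein-coding totals (1514) and without rRNA genes (1489). Protein-coding totals, the omission of rRNA genes and totals without rRNA genes were chosen after seeing the data. Leaving out a library gave 1289 (without wild-type replicate 4) to 2029 (without double loss replicate 2) genes, 585 to 1021 above 0 and 699 to 1008 below, with 160 to 268 redundant, 30 to 64 synergistic, 344 to 616 masking, 237 to 308 sub-additive, 76 to 111 partial masking, 130 to 209 opposed and 282 to 453 unclassed. Counts moved by over 1.5 times in 4 settings, and the cause was not tested. Testing against a log2 value of 0.5 (glmTreat) called 566 genes, 263 above 0 and 303 below, with 167 masking, 104 unclassed, 142 sub-additive, 64 redundant, 55 opposed, 26 partial masking and 8 synergistic. An absolute interaction above 1 left 803 genes, 469 above 0 and 334 below, with 248 masking, 167 unclassed, 163 sub-additive, 88 redundant, 62 opposed, 54 partial masking and 21 synergistic. Raw library totals gave 9754 genes, 9584 above 0 and 170 below, with 4304 masking, 1803 unclassed, 416 sub-additive, 1613 redundant, 1341 opposed, 148 partial masking and 129 synergistic. Totals without rRNA genes gave 8229 genes, 8014 above 0 and 215 below, with 2466 masking, 2889 unclassed, 378 sub-additive, 1603 redundant, 596 opposed, 153 partial masking and 144 synergistic.

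Raw library totals turned the sign of 34 of the 116 named interactions, to *Rx* 0.12, *bcd* 0.31, *Act88F* 0.093, *twe* 0.20, *bap* 0.37, *trh* 0.051, *mfas* 0.0058, *dah* 0.24, *skl* 0.32, *foxo* 0.43, *Act79B* 0.14, *ovo* 0.42, *E(spl)m2-BFM* 0.43, *mars* 0.35, *HLH54F* 0.46, *Caf1-180* 0.23, *E(spl)mgamma-HLH* 0.29, *gcm* 0.094, *SoxN* 0.30, *pnr* 0.42, *Hsp68* 0.095, *CrebA* 0.26, *ush* 0.097, *E(spl)m4-BFM* 0.44, *dp* 0.24, *Sr-CI* 0.13, *scra* 0.53, *aop* 0.37, *zfh1* 0.20, *jumu* 0.85, *Pxn* 0.25, *RpL23A* 0.37, *Bruce* 0.35 and *Ppn* 0.19. Totals without rRNA genes turned 18, to *bcd* 0.039, *bap* 0.10, *skl* 0.054, *foxo* 0.17, *ovo* 0.16, *E(spl)m2-BFM* 0.17, *mars* 0.084, *HLH54F* 0.19, *E(spl)mgamma-HLH* 0.027, *SoxN* 0.035, *pnr* 0.16, *CrebA* 0.00202, *E(spl)m4-BFM* 0.18, *scra* 0.27, *aop* 0.11, *jumu* 0.58, *RpL23A* 0.093 and *Bruce* 0.084. On the linear scale the departure was -0.39 CPM for *prc* and 2.26 CPM for *mthl8*, of the other sign than on the log2 scale. No named interaction turned with protein-coding totals, where 6 lost the call (*mthl3*, *Rx*, *dah*, *HLH54F*, *scra* and *RpL23A*) and *htl* passed. Of the named interactions 10 lost the call at an adjusted p below 0.05, 48 with glmTreat and 47 above 1.

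With the replicate number as a block (replicate block) 1441 genes were called, 1393 of them among the 1496. *He*, *Rx*, *cpx* and *mthl3* lost the call under the block and no other named interaction did. The labels say nothing of what a number shares. Over 24 same-numbered pairs the correlation of deviations from the group means was -0.231 to 0.465 with a median of 0.10, 12 were over 0.1, and 9 of 16 libraries were closest to one with their own number. Whether same-numbered libraries were handled together was not tested. The main fit did not use the numbers as pairs, and the block gives the calls with them.

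The limits are those of 4 libraries a group and 1 scaling. Groups with few counts give no usable fold, and library totals between 15197022 and 72519855 counts leave low genes with unequal precision. What made the protein-coding share of counts unequal between groups was not tested.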

Other observations

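Cytochrome P450 genes, which encode oxidising enzymes of lipid, hormone and toxin metabolism, include further called genes not described above. *Cyp4p1* had 4.73, 4.57, 4.16 and 3.89 CPM in double loss, 0.161, 0.253, 0.104 and 0.0401 CPM in jumu loss, 0.0695, 0, 0.295 and 0.0724 CPM in CHES-1-like loss and 2.26, 2.07, 1.85 and 2.07 CPM in wild-type. Both single losses were far below wild-type while double loss was above it, with an interaction of 9.64 ± 0.48 (adjusted p = 2.11e-11 in edgeR's quasi-likelihood test). *Cyp311a1* had 1, 0, 1 and 1 counts in double loss, 59, 13, 109 and 73 in jumu loss, 0, 0, 1 and 2 in CHES-1-like loss and 1, 0, 0 and 1 in wild-type, and was thus above 2 counts only in jumu loss. *Cyp318a1* had 0 counts in all 4 double loss libraries, 97, 35, 177 and 132 counts in jumu loss, 0, 0, 0 and 1 in CHES-1-like loss and 0 in all 4 wild-type libraries, and its call was lost at an adjusted p of 1 without CHES-1-like loss replicate 4.

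Genes in the other lists that were called are given next. *Zasp66*, of the sarcomeric Z-disc, had 0.494 to 0.755 CPM in double loss, 0.224 to 0.3799 CPM in jumu loss, 0.347 to 0.771 CPM in CHES-1-like loss and 0.708 to 1.103 CPM in wild-type, with an interaction of 1.72 ± 0.41 (adjusted p = 0.0097). *mfas*, which encodes a fasciclin-domain protein, had 6.79 to 8.75 CPM in double loss, 13.2 to 13.95 CPM in jumu loss, 10.1 to 14.8 CPM in CHES-1-like loss and 9.41 to 11.4 CPM in wild-type, with an interaction of -1.04 ± 0.14 (adjusted p = 4.72e-05). *Caf1-180*, the large subunit of the chromatin assembly factor that loads histones behind replication forks, had 18.7 to 28.2 CPM in double loss, 27.6 to 34.2 CPM in jumu loss, 40.5 to 48.03 CPM in CHES-1-like loss and 33.5 to 37.2 CPM in wild-type, with an interaction of -0.80 ± 0.15 (adjusted p = 0.0014). The Notch targets *E(spl)mgamma-HLH* and *E(spl)m4-BFM* had interactions of -0.73 ± 0.20 and -0.59 ± 0.17 (adjusted p = 0.027 and 0.028). *CrebA*, an activator of secretory pathway genes, had an interaction of -0.75 ± 0.25 (adjusted p = 0.064), and of -1.09 without double loss replicate 2 (adjusted p = 2.15e-08), but the call was lost without any 1 of 7 other libraries, at an adjusted p of 0.115 to 0.133. For *ovo*, *vir-1*, *mthl3*, *mthl15*, *Slc45-1*, *CCKLR-17D3* and *DNApol-alpha73* the interactions were -0.61, -1.05, -1.09, 0.82, 0.70, 0.96 and 0.55. The call of *mthl3* (adjusted p = 0.087) was lost without any 1 of 11 libraries, at an adjusted p of up to 0.338, and with protein-coding totals, and that of *DNApol-alpha73* (adjusted p = 0.047) without jumu loss replicate 4 or CHES-1-like loss replicate 2. With totals without rRNA genes, *CrebA*, *ovo* and both *E(spl)* genes had interactions above 0, and with raw library totals *mfas* and *Caf1-180* did too.

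Of 118 tested genes annotated as rRNA, 16 were called, all with interactions below 0, which is 13.6% against 12.2% over all genes tested.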
